A study of Mus musculus with 8 samples.

Results

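The genes described here are 10 imprinted genes of embryonic cells, followed through a treatment meant to deplete the m6A methyltransferase METTL3 in mouse retinal organoids. They are H19, Igf2, Cdkn1c, Peg3, Peg10, Meg3, Rian, Mest, Dlk1 and Grb10, and they were chosen by name, with earlier results of these data known. A gene was taken to be measured where a row of the deposited tables carried its symbol alone, which held for 7 of the 10 genes at 1 h and for 8 of 10 at 8 and 24 h, among 35494 loci (1 h table) or 35541 (8 and 24 h tables). Igf2 shared a locus with the overlapping gene Gm49394 in all 3 tables, Meg3 shared one with Gm26945 in the 1 h table, and no row carried the name Rian.

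The cells were Rx:GFP mouse cells, which carry a GFP reporter at the eye field gene Rx (Rax), with FKBP12F36V-HA joined to the C terminus of METTL3 at both endogenous alleles. All groups share this genotype and the same differentiation medium, were collected at the same time as day 6 retinal organoids, and carry 1 batch entry. A 2 h treatment named in the protocol was not analysed here. The groups received dTAG-13, a compound that brings FKBP12F36V-tagged protein to a ubiquitin ligase for degradation, at 125 nM for 1, 8 or 24 h, or were left untreated (0 h). Each of the 4 groups had 2 replicates, 8 samples in all, with separate rounds of library preparation. The labels do not say whether replicates came from separate differentiations, whether the line is a clone, or whether the untreated samples received solvent. The authors' tables give 1 value per gene and condition for both replicates together, so replicate spread cannot be seen and no p-value is given. Loss of METTL3 protein was not measured in these tables.

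Imprinted genes are expressed mainly from the copy inherited from either the mother or the father, in most cases under the control of DNA methylation laid down in the germ line. In mice most lie in clusters in which paternally expressed genes, many of them growth promoting, sit beside maternally expressed genes, many of them growth limiting or noncoding. Several of their transcripts are abundant in embryonic and placental tissue and decline after birth. The labels give no cross between strains and the tables do not separate alleles, so the values below are total RNA levels and parental origin is stated as background.

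METTL3 places m6A on adenosines in a short sequence context, of which GGACT in DNA letters is a common form. This motif was searched on the transcript's own strand in 1 representative GENCODE M21 transcript per gene. Of 11272 genes tested at 24 h with such a transcript, 91.5% held at least 1 match, and the median density was 1.05 matches per kb. H19 held 6 matches in 2286 bases, 2.62 per kb, a density above that of 95.9% of these genes. Meg3 held 16 matches in 14548 bases (1.10 per kb), Peg3 held 9 in 8694 bases (1.04 per kb) and Cdkn1c held 2 in 1901 bases (1.05 per kb), all close to the median. Peg10 (0.600 per kb), Dlk1 (0.645 per kb), Mest (0.390 per kb) and Rian (0.247 per kb) lay below it. Grb10 held 7 in 5061 bases (1.38 per kb), a density above that of 68.9% of these genes. Igf2 held 4 in 3970 bases (1.01 per kb). A match describes the letters only, and methylation was not measured in these tables.

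The windows below show, for the 7 genes that could be tested at 24 h, the match nearest to the stop codon, or nearest to the 3′ end in a noncoding RNA. They are shown because this motif is a common form of the context in which METTL3 places m6A. Capitals mark the motif, each window has 25 bases, and all are DNA letters of the transcript strand from GENCODE M21 (GRCm38).
H19: ttgaatccggGGACTtctttaagtc
Meg3: attctaaggtGGACTtggctgtgcc
Cdkn1c: cctgcacccgGGACTgctgcggcca
Peg3: tatacataccGGACTtcacatcaaa
Peg10: gacctggattGGACTgagcctgccc
Mest: cagtttctgtGGACTttattaaaat
Dlk1: aacagaaccaGGACTtagtgctgag
The H19 window lies in exon 4 of 5 on the minus strand, at chr7:142576275-142576299, and the Meg3 window in exon 5 of 5 on the plus strand, at chr12:109570270-109570294. The Cdkn1c window is in the coding sequence of exon 2 of 4 on the minus strand, at chr7:143459804-143459828, 155 bases before the stop codon. The Peg10 window is in the coding sequence of exon 2 of 2 on the plus strand, at chr6:4754965-4754989, 374 bases before the stop codon of the transcript used. The windows of Peg3 (minus strand, chr7:6707362-6707386), Mest (plus strand, chr6:30747555-30747579) and Dlk1 (plus strand, chr12:109460707-109460731) lie in the 3′ UTR, 132, 398 and 359 bases after the stop codon.

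Expression is given in FPKM, a fragment count adjusted for transcript length and library depth, with the interval the authors deposited, whose level is not given in the sources used here. A locus was tested where FPKM reached 1 in at least 1 of the conditions compared. A call required a ratio of 1.5-fold or more, taken after adding 0.1 FPKM to each condition, and intervals that did not overlap. As a measure of error on the ratio, the log2 ratio of the estimated counts is given with an SE computed from the deposited variances. Totals of the estimated counts lay from 31361518 to 32562075 per condition, but the authors had scaled them, so they are not library sizes. The 0 h libraries are shared by all 3 comparisons.

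None of the imprinted genes was called at any time by this rule on FPKM. The count was 0 of 6 tested at 1 h, where 0.402% of all tested loci were called. At 8 h it was 0 of 7, against 4.43% of all loci. At 24 h it was again 0 of 7, against 5.48% of all loci in either direction and 1.65% as lower. With estimated counts in place of FPKM, 2 of the 7 (Cdkn1c and Meg3) passed as lower at 24 h, as did 1.85% of all tested loci. In bulk RNA, fewer cells of a type and less RNA per cell cannot be told apart. A list of 7 genes is too short for the absence of calls to be told apart from those shares. The log2 FPKM ratio was below 0 for 6 of the 6 tested genes at 1 h and for 6 of 7 at the later times, the exception being Dlk1, while 48.4%, 48.7% and 47.9% of all tested loci were below 0. The median ratios of the genes at these times were -0.08, -0.20 and -0.42, beside 0.01, 0.01 and 0.02 for all tested loci. The genes were chosen with earlier results of these data known, and the times share the 0 h libraries. These contrasts are therefore descriptive and were not tested.

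At 0 h the levels ranged over more than 3 orders of magnitude. Mest was the highest, rank 49 among the 13825 loci tested at 8 h, with 1689.65 FPKM. H19 followed at 531 FPKM (rank 188), then Meg3 at 95.4 (rank 1037), Peg3 at 92.0 (rank 1084), Peg10 at 65.3 (rank 1591), Dlk1 at 24.2 (rank 4370) and Cdkn1c at 5.88 (rank 9321). Grb10 stood at 0.815 FPKM. Neighbours in this order had intervals that did not overlap, except Meg3 with Peg3 and Peg3 with Peg10, which could not be separated. The 0 h level of a gene differed by at most 1.05-fold between tables (Cdkn1c), although the 0 h libraries are shared. These differences were not uniform over the genes. Between the 1 and 8 h tables Peg10 moved from 67.7 to 65.3 FPKM at 0 h, and Mest from 1669 to 1690.

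**Figure D1:**
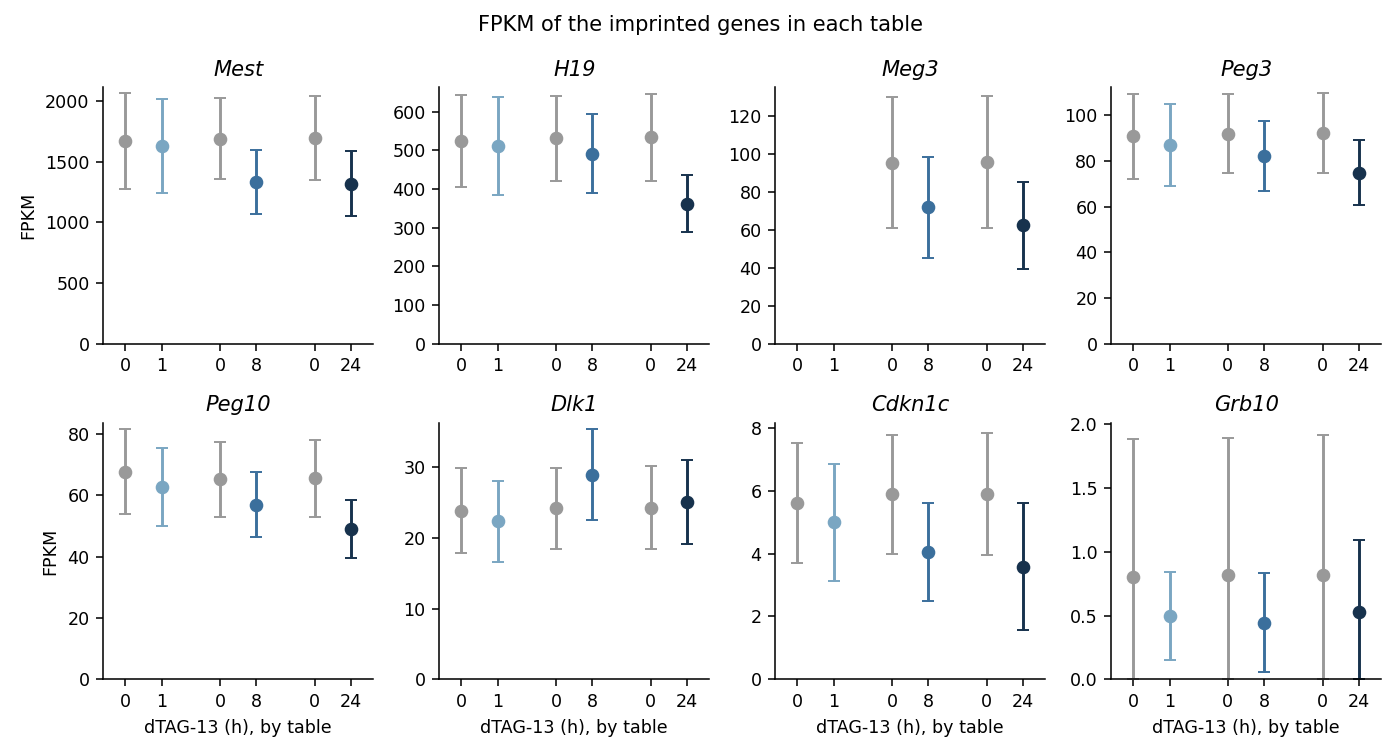
FPKM (y axis, linear from 0) of the 8 imprinted genes with a row of their own, at 0 h (grey) and after dTAG-13 (blue, hours on the x axis) in each of the 3 tables. Points are the authors' values over both replicates and bars are the deposited intervals. Treated and untreated intervals overlap in every pair shown.

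H19 is a maternally expressed long noncoding RNA, transcribed at the end of the Igf2 domain and processed to a microRNA. Its gene, on chromosome 7 (minus strand, 142575529 to 142578143, GRCm38), gives a transcript of 5 exons. H19 stood at 525 FPKM (406 to 643) untreated and 511 (384 to 638) after 1 h, and at 531 (421 to 642) and 491 (390 to 593) in the 8 h comparison. At 24 h it was 362 (288 to 436) against 533 (421 to 645) at 0 h, 67.9% of the untreated level. The 24 h value was the lowest of the series, and its interval overlapped that of 0 h by a small margin. The log2 FPKM ratios at 1, 8 and 24 h were -0.04, -0.11 and -0.56, the last lower than the ratio of all but 7.07% of tested loci. In estimated counts the 24 h ratio was -0.53 ± 0.19 (SE), from 32321.5 to 22411 counts. For the intervals to separate at 24 h, with the relative width deposited, H19 would have had to be at 65.6% of its 0 h level or less. The 24 h log2 ratio minus the 8 h one was -0.45, each ratio taken against the 0 h value of its own comparison. The treated intervals at 8 and 24 h, from separately scaled comparisons, overlapped.

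Igf2, the paternally expressed growth factor of the same domain, was measured only together with Gm49394, which shares 16048 bases with it on the same strand. The combined locus had 17.0 FPKM (11.7 to 22.3) untreated and 16.5 (11.3 to 21.6) after 1 h. It was 17.2 (12.2 to 22.1) and 15.6 (11.0 to 20.3) in the 8 h comparison, and 17.2 (12.2 to 22.3) and 14.9 (10.4 to 19.4) in the 24 h one. The intervals overlapped at each time, and the log2 ratio at 24 h was -0.21. How much of this signal belongs to Igf2 cannot be told from the tables.

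Cdkn1c encodes a CDK inhibitor of the Cip/Kip family, expressed from the maternal copy and known for taking progenitors out of the cell cycle. It lies further along chromosome 7, on the minus strand at 143458339 to 143461050. Its FPKM was 5.60 (3.69 to 7.51) untreated and 4.99 (3.12 to 6.86) after 1 h, 5.88 (3.99 to 7.78) and 4.06 (2.49 to 5.62) at 0 and 8 h, and 5.91 (3.97 to 7.84) and 3.58 (1.56 to 5.60) at 0 and 24 h. Treated values were below untreated ones at each time, with overlapping intervals. The log2 FPKM ratios were -0.16, -0.53 and -0.71. The ratios of estimated counts were further from 0, at -0.74 ± 0.28 (SE) at 8 h and -0.92 ± 0.28 at 24 h, when 259 counts at 0 h stood against 137. With estimated counts in place of FPKM, Cdkn1c passed the same rule at 24 h, lower, as did 1.85% of all tested loci. Its FPKM interval was wide: a fall to 43.0% of the 0 h level would have been needed for a call at 24 h.

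Peg3 and Peg10 are paternally expressed. Peg3 encodes a large zinc finger protein and Peg10 a protein derived from a retrotransposon that placental development requires. Each carries most of its transcript in 1 exon, 7840 of 8694 bases in Peg3 and 6394 of 6667 in Peg10, against a median longest exon of 1408 bases over the genes with a model. Peg3 (chromosome 7, minus strand, 6703892 to 6730431) had 90.9 FPKM (72.1 to 109.6) untreated and 87.0 (69.1 to 105) after 1 h, 92.0 (74.7 to 109) and 82.2 (66.8 to 97.7) at 0 and 8 h, and 92.3 (74.7 to 109.9) and 74.9 (60.7 to 89.2) at 0 and 24 h. Peg10 (chromosome 6, plus strand, 4747306 to 4760517) had 67.7 FPKM (53.9 to 81.5) and 62.6 (49.8 to 75.4) at 0 and 1 h, 65.3 (53.0 to 77.5) and 56.9 (46.2 to 67.6) at 0 and 8 h, and 65.5 (53.0 to 77.9) and 48.9 (39.6 to 58.3) at 0 and 24 h. Both genes were lower after treatment in each table, by less than the width of their intervals. In estimated counts the 24 h ratio was -0.29 ± 0.19 (SE) for Peg3 and -0.42 ± 0.19 for Peg10.

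Mest, a paternally expressed gene for a membrane-bound hydrolase-like protein, lies on chromosome 6 at 30723547 to 30748465 (plus strand) and has 12 exons. Its FPKM was 1669 (1274 to 2064) untreated and 1632 (1245 to 2018) after 1 h. In the 8 h comparison it was 1689.65 (1354 to 2025) before and 1332 (1069 to 1594) after treatment, and in the 24 h one 1696 (1351 to 2041) and 1319 (1052 to 1585). Mest thus stood at 78.8% of its untreated level at 8 h and 77.8% at 24 h, with overlapping intervals. The ratio of estimated counts was -0.34 ± 0.20 (SE) at 8 h and -0.36 ± 0.20 at 24 h. The 3′ end of Mest overlaps that of Copg2 on the other strand by 912 bases, and Copg2 had 29.7 FPKM at 0 h with an interval from 0 to 67.8. Whether strand was used in counting is not given in the sources used here, so the exact share of Copg2 in these values is uncertain. At 0 h in the 8 h comparison, 3225 estimated counts were assigned to Copg2 and 130429 to Mest.

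Grb10 encodes an adaptor that dampens insulin and IGF receptor signalling. It is expressed from the maternal copy in most tissues and from the paternal copy in neurons. The gene (chromosome 11, minus strand, 11930508 to 12038683) did not reach 1 FPKM in any condition and was not tested. Its FPKM was 0.804 (0 to 1.88) and 0.497 (0.150 to 0.843) at 0 and 1 h, 0.815 (0 to 1.89) and 0.444 (0.0549 to 0.832) at 0 and 8 h, and 0.818 (0 to 1.91) and 0.526 (0 to 1.09) at 0 and 24 h. The 0 h intervals reached 0, so no fall could have been called with these intervals. The log2 FPKM ratios at 1, 8 and 24 h were -0.60, -0.75 and -0.55, from values below 1 FPKM. The estimated counts were 98.9 at 0 h and 69.1 at 24 h.

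**Figure D2:**
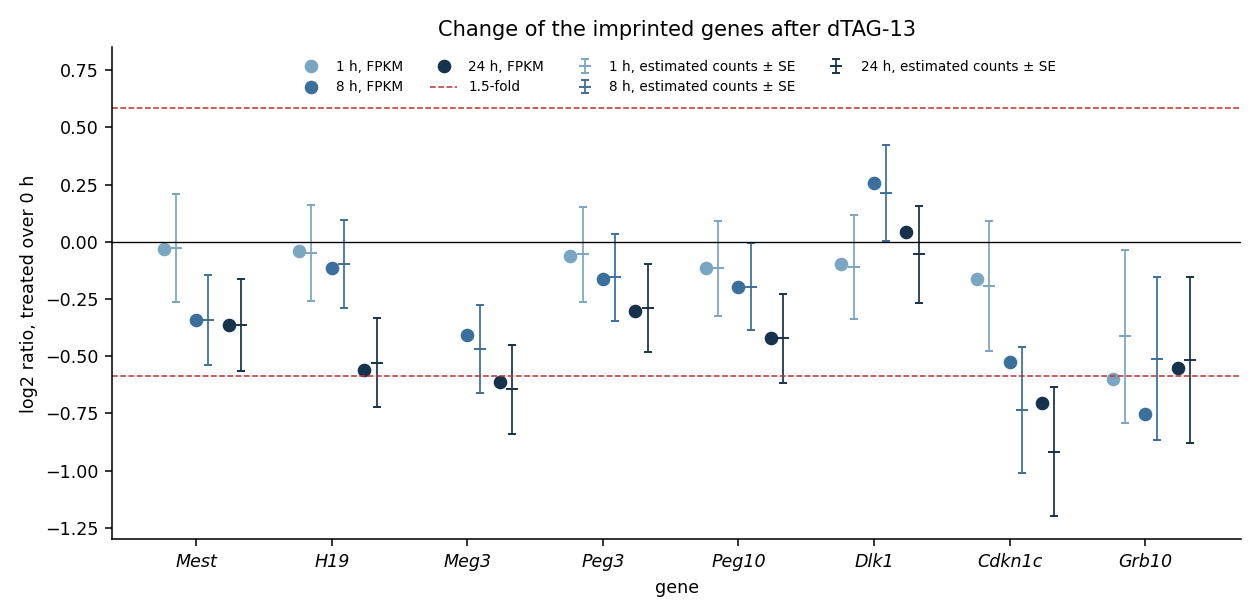
Log2 ratio of treated over 0 h (y axis) for each imprinted gene with a row of its own (x axis) at 1, 8 and 24 h. Filled points are FPKM ratios, horizontal marks with bars are ratios of estimated counts ± SE from the deposited variances, and dashed lines mark 1.5-fold. Meg3 and Cdkn1c are past the lower line at 24 h, and Dlk1 is the only tested gene with FPKM ratios above 0. Cdkn1c is also past that line at 8 h in estimated counts. Grb10, below 1 FPKM and not tested, is past it at 1 and 8 h in FPKM.

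The region on chromosome 12 holds the remaining genes. Dlk1 is the paternally expressed gene for a transmembrane ligand-like protein of the Notch family that holds back differentiation. Meg3 (Gtl2), Rian and Mirg are maternally expressed noncoding RNAs that follow it on the plus strand and host microRNAs and small nucleolar RNAs. Dlk1 lies at 109452823 to 109463336, Meg3 at 109541001 to 109571726, Rian at 109603940 to 109661716 and Mirg at 109729764 to 109749460.

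Dlk1 had 23.9 FPKM (17.8 to 29.9) untreated and 22.3 (16.6 to 28.0) after 1 h, 24.2 (18.5 to 30.0) and 28.9 (22.5 to 35.4) at 0 and 8 h, and 24.3 (18.5 to 30.1) and 25.1 (19.2 to 31.0) at 0 and 24 h. Its log2 FPKM ratios were -0.10, 0.26 and 0.05, and the ratios of estimated counts were -0.11 ± 0.23 (SE), 0.21 ± 0.21 and -0.05 ± 0.21. The direction at 24 h differed between the scales, and the 8 h count ratio was about the size of its SE.

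Meg3 had 95.4 FPKM (61.0 to 129.8) untreated and 71.9 (45.2 to 98.5) after 8 h, and 95.7 (60.9 to 131) and 62.5 (39.5 to 85.5) at 0 and 24 h. Meg3 was thus at 75.3% of its untreated level at 8 h and 65.3% at 24 h, and the intervals overlapped. The log2 FPKM ratio was -0.41 at 8 h and -0.61 at 24 h, the latter lower than that of all but 5.96% of tested loci. In estimated counts it was -0.47 ± 0.19 (SE) and -0.64 ± 0.19, from 15702 to 10053 counts at 24 h. Meg3 passed the 24 h rule, lower, with estimated counts in place of FPKM and also with intervals of 2 deposited standard deviations, a rule that 2.49% of all tested loci passed as lower. By fold alone, Meg3 and Cdkn1c were past 1.5-fold at 24 h, as were 6.53% of all tested loci in that direction. The deposited FPKM interval of Meg3 was wider than its count variance alone gives, and only a level of 46.5% of 0 h or less would have been called. In the 1 h table Meg3 was merged with Gm26945, and that locus had 268 FPKM (193 to 344) untreated and 267 (195 to 338) after 1 h.

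Rian had no row of its own. A plus-strand gene inside it, Gm26945, gave its name to a locus that the 8 and 24 h tables call Gm26945,Rtl1 and place at 109589193 to 109661346, over most of Rian. That locus had 185 FPKM (150 to 221) and 174 (141 to 207) at 0 and 8 h, and 186 (150 to 222) and 165 (133 to 196) at 0 and 24 h, a log2 ratio of -0.09 and -0.18. The part of it that is Rian RNA cannot be told from the tables. Mirg, at the far end, had 27.9 FPKM (20.7 to 35.2) and 28.2 (20.6 to 35.8) at 0 and 8 h, and 28.0 (20.6 to 35.4) and 37.3 (27.8 to 46.8) at 0 and 24 h. The name of the merged locus also includes Rtl1, a paternally expressed gene. Rtl1 alone and Gm26945 alone also had rows, at 0.138 and 0.757 FPKM at 0 h in the 8 h comparison. At 24 h the log2 ratios of estimated counts were -0.64 ± 0.19 (SE) for Meg3, -0.17 ± 0.19 for the merged locus and 0.31 ± 0.22 for Mirg. No locus of the region was called, and the difference between them was not tested.

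**Figure D3:**
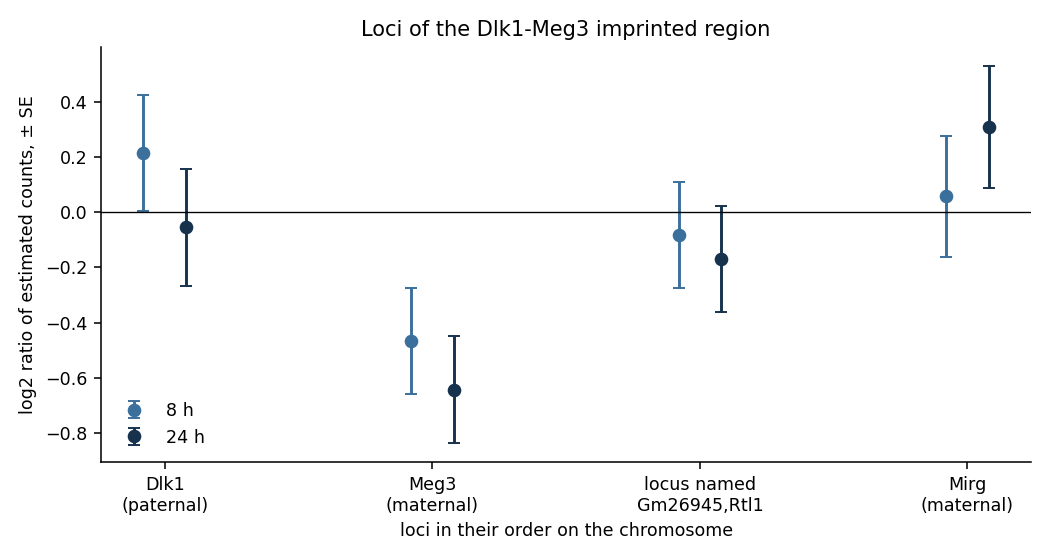
Log2 ratio of estimated counts, treated over 0 h (y axis), for 4 loci of the Dlk1-Meg3 region in chromosomal order (x axis) at 8 h (light) and 24 h (dark). Bars are the SE from the deposited variances. Meg3 lies lowest at both times, and Mirg lies above 0 at 24 h.

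A wider list of 54 other imprinted genes was read by the same rule, 29 paternally and 25 maternally expressed. At 1, 8 and 24 h, 31, 31 and 30 of these could be tested, of which 0, 2 and 1 were called. These shares are near those of all tested loci (0.402%, 4.43% and 5.48%), so nothing particular to the list is read from them. The median log2 ratio was 0.02, 0.00 and 0.06, with 14 of 31, 15 of 31 and 14 of 30 genes below 0. Genes listed as maternally expressed had medians of 0.02, -0.06 and -0.21, and those listed as paternally expressed 0.02, 0.04 and 0.10. The difference between these lists was not tested, and whether each gene is imprinted in these cells was not measured.

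Among the paternally expressed genes, Impact, which encodes a regulator of the kinase GCN2, fell in the 8 h comparison from 109.7 FPKM (89.2 to 130.2) to 72.3 (58.7 to 85.9), a log2 ratio of -0.60, and was not called at 24 h (-0.45). Its 8 h ratio of estimated counts was also -0.60 ± 0.19 (SE), but on that scale the intervals overlapped and the call was lost. Kcnq1ot1, the antisense noncoding RNA that silences the cluster of Cdkn1c in cis, was called higher on FPKM in both later comparisons. It had 0.968 FPKM (0.779 to 1.16) untreated and 1.51 (1.18 to 1.83) after 8 h, and 0.971 (0.778 to 1.16) and 1.70 (1.34 to 2.07) in the 24 h table. Its log2 FPKM ratios were 0.59 and 0.75, but those of the estimated counts were only 0.19 ± 0.20 (SE) and 0.26 ± 0.20, and on that scale it was not called. Kcnq1ot1 was below 1 FPKM at 0 h, so it was tested only through its treated values. Both calls were also lost with a pseudocount of 1 FPKM, a filter at 5 FPKM or a 2-fold threshold, and the 8 h call with centred ratios. Plagl1, the zinc finger factor known to act on other imprinted genes, had 111 FPKM (62.6 to 159.9) at 0 h and 59.1 (32.3 to 86.0) at 24 h. Its log2 ratio of -0.91 was the lowest of the list, and its wide FPKM intervals overlapped. In estimated counts the ratio was -0.92 ± 0.20 (SE), and Plagl1 was called lower at 24 h on that scale and with intervals of 2 deposited standard deviations. By fold alone at 24 h, 5 of the 19 tested paternally expressed genes were higher and 1, Plagl1, was lower. Nnat (-0.32), Ndn (0.13), Slc38a4 (-0.38) and Jade1 (0.17), the other abundant paternally expressed genes, were not called at 24 h.

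Of the maternally expressed genes none was called. The most abundant were Nap1l4 and Cd81, both near Cdkn1c on chromosome 7, Ube3a, the ubiquitin ligase, and Tssc4 and Mirg. Their 24 h log2 ratios were -0.21 for Nap1l4, -0.40 for Cd81, 0.31 for Ube3a, 0.45 for Tssc4 and 0.41 for Mirg. Igf2r, the receptor that clears IGF2, was split over several rows and gave no value.

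**Figure D4:**
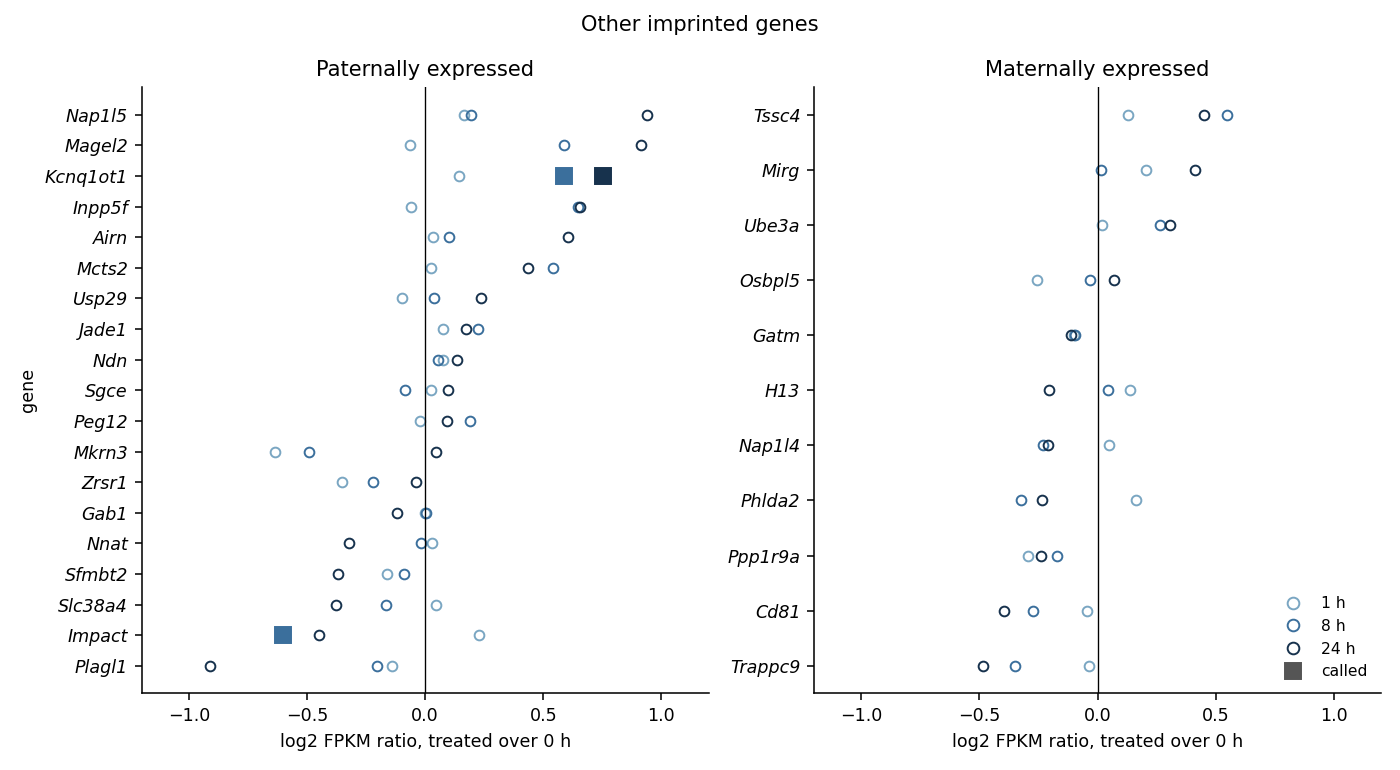
Log2 FPKM ratio of treated over 0 h (x axis) for other imprinted genes tested at 24 h (y axis, ordered by the 24 h value), by listed parent of origin, at 1, 8 and 24 h. Open circles are values that were not called and filled squares are calls. Squares mark Kcnq1ot1 at 8 and 24 h and Impact at 8 h.

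A mixed list of regulators of DNA methylation and chromatin that bear on imprints was read next. It holds maintenance genes, the de novo methyltransferase genes and Tet1, Tet2 and Tet3, whose products remove methylation, so its median has no single functional direction. Of 20 listed, 19 were tested at each time, 0 were called at 1 h, and only Dnmt3l was called at 8 and 24 h, lower at both. A single call among 19 genes is close to the 4.43% and 5.48% of all tested loci. Dnmt3l, the cofactor of de novo methyltransferases in the germ line and early embryo, fell in the 8 h comparison, where it had 40.2 FPKM (31.9 to 48.6) untreated and 22.5 (17.6 to 27.4) treated. It also fell in the 24 h one, with 40.4 (31.9 to 48.8) and 24.8 (19.05 to 30.5). Dnmt1, the maintenance methyltransferase, had ratios (log2, 8 then 24 h) of -0.42 and -0.43, its partner Uhrf1 -0.42 and -0.33, Trim28, the corepressor of the imprint-binding protein ZFP57, -0.35 and -0.50, and the Polycomb genes Ezh2 (-0.30 and -0.35) and Eed (-0.35 and -0.34) were similar. None of these 5 was called. The list's median was -0.05, -0.13 and -0.12 at 1, 8 and 24 h, and 13 of 19 genes were below 0 at each time.

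In the IGF pathway, 12 of 20 listed genes were tested at each time, none was called at 1 h and 1 at each later time, where 4.43% and 5.48% of all tested loci were called. With 12 genes, a single call does not set the list apart. Insr, the insulin receptor, which also binds IGF2, rose at both. It had 4.63 FPKM (3.59 to 5.66) untreated and 8.41 (6.73 to 10.1) after 8 h, and 4.64 (3.59 to 5.70) and 7.87 (6.27 to 9.47) in the 24 h table. Among the abundant genes that were not called, the binding proteins Igfbp2, Igfbp5 and Igfbp4 had log2 ratios of 0.02, 0.33 and -0.33 at 24 h, and the RNA-binding proteins Igf2bp2 and Igf2bp3, named for binding Igf2 mRNA, had -0.31 and -0.21.

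The organoids expressed the retinal progenitor markers, with 7 of 7 markers that had a row of their own above 1 FPKM at 0 h in the 8 and 24 h tables. Their summed FPKM was 559 at 0 h and 748 at 24 h, and 2 of the 7, Rax and Lhx2, were called higher at 24 h. Of all tested loci, 5.48% were called at 24 h in either direction and 1.65% as lower. The calls in the marker lists were not tested against these shares. The retinal pigment epithelium list had the largest shift in relative terms of the 9 marker lists, from 59.7 to 96.4 FPKM at 24 h, mostly through the pigment gene Pmel (28.9 and 60.3), with 0 of 3 tested markers called and Tyr at 0 at 0 h. Markers of pluripotent cells were also present, 8 of 8 above 1 FPKM, with a sum of 329 at 0 h and 216 at 24 h, and Tdgf1 and Dppa5a were called lower at 24 h. The trophoblast list summed to 56.6 at 0 h and 39.2 at 24 h, mostly Krt8, which was called lower at 24 h, and Krt18. Of its 7 markers with a row of their own, 5 reached 1 FPKM at 0 h and 5 at 24 h, while Cdx2 stood at 0.0511 FPKM. The lists for mesoderm and mesenchyme and for primitive and visceral endoderm summed to 14.5 and 6.46 FPKM at 0 h and 12.4 and 8.13 at 24 h. In each, 3 of 8 markers reached 1 FPKM at 0 h, and at 24 h 4 and 3 did, while the mesoderm gene T stood at 0.0808. The neuron, telencephalon and neural crest lists summed to 10.8, 21.9 and 4.82 FPKM at 0 h and 8.93, 22.4 and 5.15 at 24 h, with no call. Imprinted genes differ in level between such cell types, and the part of these shifts in the lower values of H19, Meg3 and Cdkn1c was not tested.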

How the data were processed

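Per the labels, poly(A) RNA of 8 samples (4 groups of 2) was sequenced in paired ends. The submitters' processing notes name Cufflinks 2.2.1, Cuffdiff and the build mm10, with no role or order, and the aligner and strandedness are not given in the sources used here. The authors deposited 3 pairs of tables, each setting 0 h against 1, 8 or 24 h. Per the file headers, they hold FPKM with lower and upper bounds, and estimated counts with their variances, pooled over replicates and scaled within each pair. No estimated count was rounded, since no count model was run.

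Loci with a status other than OK (10, 7 and 9) were left out. Ratios were formed within a table, on the log2 scale after adding 0.1 FPKM to treated and untreated values, so changes of low genes are understated. A locus with at least 1 FPKM in 1 of the conditions was tested (13690, 13825 and 13910 loci) and called at 1.5-fold with intervals that did not overlap. The SE of a ratio of estimated counts came from the deposited variances alone, whose median coefficient of variation was 10.8% to 11.8%. List genes with a shared or repeated name were left out. Named genes were all members, called list genes and at most 5 abundant uncalled genes per list. A further rule, to name genes with a pattern like that of a called member, found no called member. Gene models came from GENCODE M21 (GRCm38), by APPRIS rank, then coding and total length. Python 3.11.15 and pandas 2.3.3 were used, and the rule was tried on simulated tables with larger changes than those of the members. Noise and interval width there both came from the deposited count variances. That trial does not cover changes near 1.5-fold or FPKM intervals wider than those variances give. The members and lists were chosen with earlier results of these data known.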

Additional observations from a re-analysis of the deposited data

How the results depend on the processing

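Alternatives were another pseudocount (0.01 or 1 FPKM), no filter or one at 5 FPKM, estimated counts, the fold without intervals, a 2-fold threshold, centred ratios, and intervals of 2 deposited standard deviations. The number of imprinted genes called stayed at 0 at 1 and 8 h under all 9. At 24 h it was 2 with estimated counts (Cdkn1c and Meg3), 2 without the intervals (again Cdkn1c and Meg3) and 1 with intervals of 2 deposited standard deviations (Meg3). By these rules, in the same order, 1.85%, 6.53% and 2.49% of all tested loci were lower at 24 h. The Dlk1 ratio at 24 h changed direction with estimated counts, to -0.0546. Of 204 recomputed ratios of the genes, 198 kept their direction and their side of the rule. Of 162 recomputed counts for the other lists, 26 moved by over 1.5 times or to or from 0. No paired analysis was possible because the deposited columns are pooled over replicates, and for the same reason no replicate could be left out. Interval width limits what could be called, most for Grb10, Cdkn1c and Meg3.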

Other observations

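Cell cycle and Notch genes that share a pathway with Cdkn1c and Dlk1 were read by the same rule, by which 4.43% of all tested loci were called at 8 h and 5.48% at 24 h. Of 10 tested partners of Cdkn1c, Cdkn1a, the other Cip/Kip inhibitor that p53 activates, fell in both later comparisons. It had 48.1 FPKM (37.5 to 58.6) untreated and 20.1 (15.6 to 24.5) after 8 h, and 48.2 (37.5 to 59.0) and 26.4 (20.3 to 32.4) in the 24 h table. Cdkn1b, the remaining family member, had log2 ratios of -0.09 and -0.15 and was not called. Of 9 tested Notch genes, Hey1, a transcriptional target, rose likewise. It had 4.25 FPKM (3.17 to 5.33) untreated and 8.03 (6.24 to 9.82) after 8 h, and 4.26 (3.17 to 5.36) and 8.41 (6.51 to 10.3) in the 24 h table. The receptor gene Notch2 rose at 8 h, from 11.2 FPKM (8.91 to 13.5) to 16.8 (13.5 to 20.2), a log2 ratio of 0.59, and was not called at 24 h (0.34). The Notch2 value lay at the threshold, and its 8 h call was lost with estimated counts, centred ratios, a pseudocount of 1 FPKM or a 2-fold threshold.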
